A study of Mus musculus with 10 samples.

Results

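The homeostatic microglia genes are *P2ry12*, *P2ry13*, *Gpr34*, *Csf1r*, *Siglech*, *Fcrls*, *Tmem119*, *Olfml3* and *Sall1*. They were taken by gene name from the deposited expression table, and all 9 were found among its 54532 genes. The table holds 10 neural retinas profiled by RNA-seq, from mice of the albino BALB/c strain aged 2 months. After 12 hr of darkness, which all mice had, they spent 1 day either under normal light of 200 lux (NL, 5 retinas) or under high-intensity light of 15000 lux, called light damage (LD, 5 retinas). Replicate numbers in the labels are 1, 4, 5, 7 and 8 for NL and 1, 4, 6, 7 and 8 for LD. Neither group carried a transgene or a mutation made for the study.

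Microglia are the resident macrophages of the retina. In the undisturbed tissue they lie in the plexiform layers and survey it with fine processes, and their survival depends on signals through CSF1R. The genes described here are expressed in this resting state. They include receptors that sense nucleotides and lipids, a receptor of the Siglec family, a growth factor receptor, and the transcription factor SALL1, which helps to maintain microglial identity. When neurons are injured, microglia withdraw their processes, divide and migrate, and are known in many models to lower several of these genes while they induce phagocytic and inflammatory ones. Because whole retinas were sequenced, a change in the number of microglia and a change in RNA per microglial cell cannot be told apart.

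Positions are those of the deposited table, on GRCm38. The pair *P2ry12* (chromosome 3, 59216272 to 59262871) and *P2ry13* (chromosome 3, 59207892 to 59210882) are neighbours on the minus strand, 5389 bases apart, and both lie within *Med12l* on the opposite strand. Only 9 exonic bases of *P2ry12* and none of *P2ry13* are shared with exons of *Med12l* in GENCODE M21. *Gpr34* (chromosome X, 13632089 to 13640858) lies within *Cask* on the opposite strand, with no shared exonic base. *Fcrls* (chromosome 3, 87250758 to 87263738), *Olfml3* (chromosome 3, 103722222 to 103738001), *Siglech* (chromosome 7, 55768178 to 55778925), *Tmem119* (chromosome 5, 113793729 to 113800516) and *Sall1* (chromosome 8, 89027235 to 89044162) overlap no other gene.

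RefSeq promoter windows, 250 bases before and 50 bases from the annotated start, were found for 6 of the 9 genes. Those of *P2ry12* and *P2ry13*, neighbours whose ratio differed between the groups, of *Siglech*, which split the LD retinas, and of *Fcrls*, the gene that rose, are shown 5′ to 3′ on the strand of the gene (GRCm38.p6). Capitals mark the core GAGGAA of the motif of PU.1, the factor encoded by *Spi1*, or its reverse complement. The windows are chr3:59262936-59263235 (minus strand) for *P2ry12*, chr3:59210833-59211132 (minus strand) for *P2ry13*, chr7:55767934-55768233 (plus strand) for *Siglech* and chr3:87263475-87263774 (minus strand) for *Fcrls*.
P2ry12: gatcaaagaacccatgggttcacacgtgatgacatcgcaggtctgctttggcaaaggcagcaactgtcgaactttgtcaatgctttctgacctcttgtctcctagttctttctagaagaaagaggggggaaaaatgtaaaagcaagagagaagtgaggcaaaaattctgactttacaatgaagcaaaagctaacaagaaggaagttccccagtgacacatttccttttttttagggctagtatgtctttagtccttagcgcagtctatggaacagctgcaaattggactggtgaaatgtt
P2ry13: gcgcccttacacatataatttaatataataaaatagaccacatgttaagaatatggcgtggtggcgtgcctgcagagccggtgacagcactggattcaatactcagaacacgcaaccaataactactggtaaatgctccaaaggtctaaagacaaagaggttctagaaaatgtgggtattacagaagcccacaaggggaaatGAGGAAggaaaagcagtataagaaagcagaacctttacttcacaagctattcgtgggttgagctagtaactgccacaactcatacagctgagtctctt
Siglech: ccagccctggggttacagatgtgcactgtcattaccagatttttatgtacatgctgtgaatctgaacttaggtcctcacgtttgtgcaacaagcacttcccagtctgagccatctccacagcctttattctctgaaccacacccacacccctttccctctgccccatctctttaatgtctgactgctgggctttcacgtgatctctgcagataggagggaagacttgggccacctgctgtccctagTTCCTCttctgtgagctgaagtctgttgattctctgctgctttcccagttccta
Fcrls: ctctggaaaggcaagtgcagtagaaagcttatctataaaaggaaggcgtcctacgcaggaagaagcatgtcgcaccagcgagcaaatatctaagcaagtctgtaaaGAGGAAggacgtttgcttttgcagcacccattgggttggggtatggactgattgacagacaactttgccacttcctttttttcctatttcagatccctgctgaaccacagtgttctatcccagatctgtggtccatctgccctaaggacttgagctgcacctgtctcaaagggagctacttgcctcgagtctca
On both strands, the core was found in the windows of *P2ry13*, *Siglech* and *Fcrls* and in 28.3% of all 32851 promoter windows of the same length. The longer motif GAGGAAGT, which contains the core and is in 3.20% of all windows, was in none of the windows of the 6 genes. Nor were the MEF2 motif, CTA and TAG with 4 bases of any kind between them (3.69% of all windows), or the SMAD motif GTCTAGAC (0.213%). These matches describe the letters of the windows only.

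The values are FPKM as deposited, that is fragments scaled to gene length and to library size. They could be turned back into whole reads, 21343389 to 26832535 in the NL and 18965090 to 23378090 in the LD libraries. At this depth the 9 genes rested on 6 to 916 reads per retina. Of the 20 pairs of retinas within a group, 3 were much closer than the rest: NL-5 with NL-7, LD-1 with LD-7 and LD-4 with LD-6 differed by a chi-square per gene of 2.52 to 3.41, against 10.9 to 38.5 for the other 17 pairs. They were kept as separate samples as labelled. Sampling noise alone would give about 1, but a value above this does not show that the retinas of a close pair are from separate mice. Results were also computed with each pair averaged or, a choice made after seeing the data, left out. Nothing in the labels says that the 10 retinas are from separate mice, so p-values measure the spread between these samples. The exact permutation tests likewise take each retina as 1 unit. *Xist*, a transcript of female cells, reached 1 FPKM in 2 NL and 2 LD retinas, the latter LD-4 and LD-6.

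Of the 9 homeostatic genes, 1 rose after LD and none fell. The gene that rose was *Fcrls*, which encodes an Fc receptor-like scavenger receptor, from a mean of 0.607 to 6.05 FPKM. A gene was called when limma gave an adjusted p below 0.01 and the change exceeded 2-fold. Of the 24508 genes tested, 6.51% met this, 4.13% upward and 2.37% downward. The median log2 fold change of the 9 genes was 0.66, against -0.01 over all genes tested. Of 15 genes used as general markers of microglia, macrophages and other myeloid cells, here called pan-myeloid, 13 rose in the same retinas. Within the LD group, the homeostatic genes varied more from retina to retina than under NL, and *P2ry12*, *P2ry13*, *Siglech*, *Tmem119* and *Olfml3* had LD retinas both above and below the whole NL range. The plot of the genes in each retina shows this spread.

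**Figure D1:**
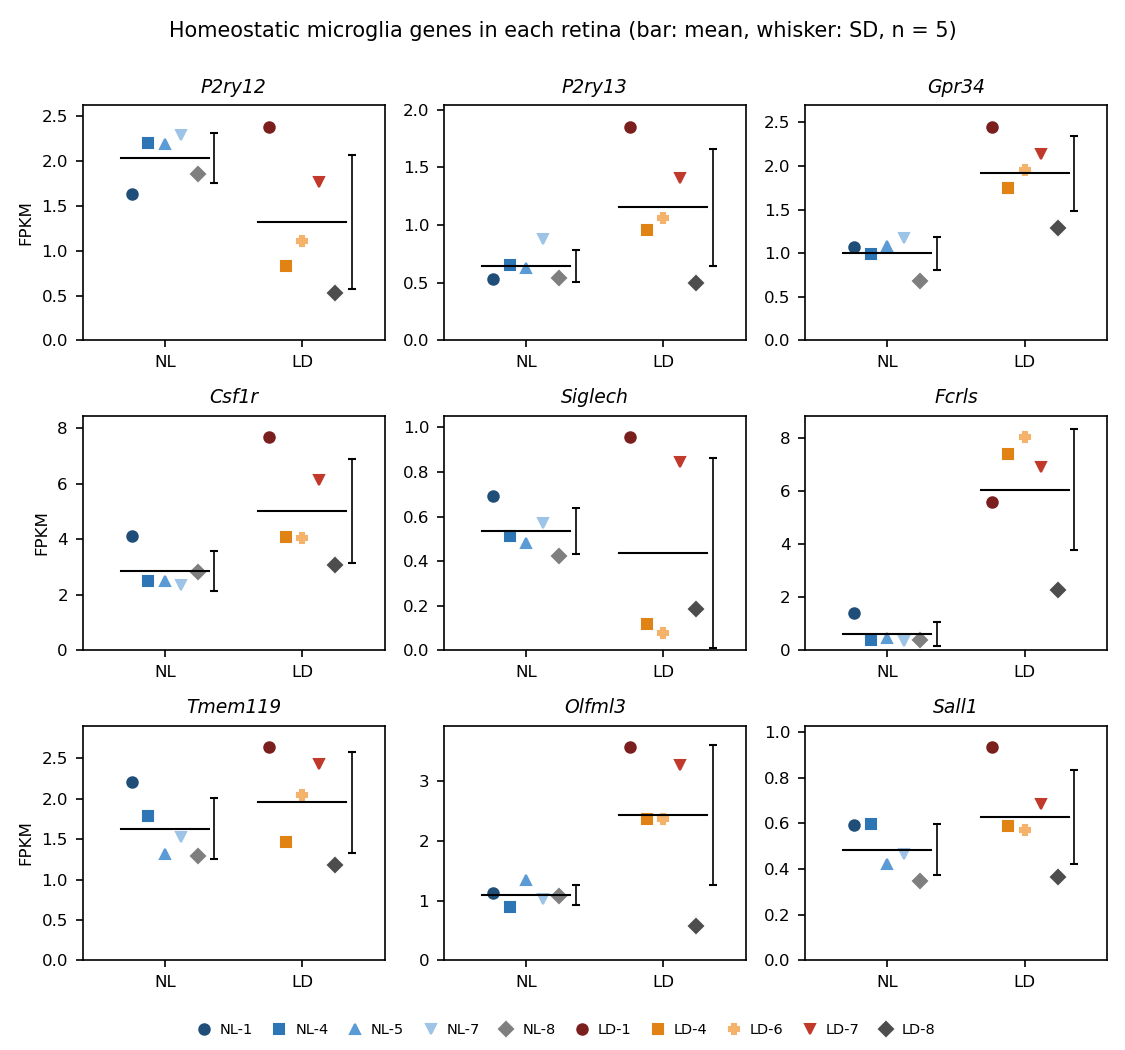
FPKM (y axis, linear from 0) of the 9 homeostatic microglia genes in 5 NL and 5 LD retinas, with 1 symbol per retina, the mean as a bar and the SD as a whisker. *Fcrls* and *Gpr34* have all LD retinas above all NL retinas, while *Siglech* has 2 LD retinas above and 3 below the NL range.

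*P2ry12* encodes the ADP receptor through which microglial processes are drawn to injured cells. Its level was 1.63, 2.20, 2.19, 2.29 and 1.86 FPKM in NL-1, NL-4, NL-5, NL-7 and NL-8. In the LD retinas it was 2.38 FPKM in LD-1, 0.833 in LD-4, 1.11 in LD-6, 1.76 in LD-7 and 0.529 in LD-8. Thus 3 LD retinas lay below all NL retinas, 1 lay above them and the groups overlapped. The mean went from 2.03 ± 0.278 to 1.32 ± 0.747 FPKM (SD, n = 5 each). The log2 fold change on the log2(FPKM + 0.1) scale was -0.74 (standard error, SE, 0.33, 95% interval -1.46 to -0.02), which did not pass the threshold (adjusted p = 0.122 in limma). Without the close pair LD-1 and LD-7 it was -1.25 with an adjusted p of 0.00295, past both thresholds. It was -0.57 (adjusted p = 0.373) without LD-4 and LD-6, -0.65 (adjusted p = 0.331) without NL-5 and NL-7 and -0.49 (adjusted p = 0.219) without LD-8.

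*P2ry13* encodes a second ADP receptor. It was at 0.536, 0.652, 0.623, 0.876 and 0.537 FPKM in NL-1, NL-4, NL-5, NL-7 and NL-8. The LD retinas had 1.85 FPKM in LD-1, 0.956 in LD-4, 1.06 in LD-6, 1.41 in LD-7 and 0.498 in LD-8. All LD retinas but LD-8 were above the NL range, and LD-8 was just below it. The log2 fold change was 0.66 (SE 0.29, 95% interval 0.02 to 1.30, adjusted p = 0.117), which did not pass the threshold.

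*Gpr34*, whose product is a receptor for lysophosphatidylserine, was at 1.07, 0.991, 1.08, 1.17 and 0.686 FPKM in NL-1, NL-4, NL-5, NL-7 and NL-8. After LD it was at 2.45 FPKM in LD-1, 1.75 in LD-4, 1.95 in LD-6, 2.14 in LD-7 and 1.29 in LD-8. The groups did not overlap, the LD values being the higher ones, as for 11.8% of all genes tested (10.6% had the LD values lower). The exact permutation p, two-sided, was 0.00794, which is the smallest possible with 5 and 5 retinas. Its mean was 1.91 times higher, and its log2 fold change of 0.86 (SE 0.19, adjusted p = 0.00611) passed the threshold for the p-value, as 9.30% of all genes did upward, but not that for the fold change. It was past both when the FPKM were turned into TPM (1.01) or when limma-voom was run on the recovered reads (1.08). In some other settings it passed the threshold for the p-value only, as with quantile normalization (adjusted p = 0.00664 in limma), and in others it passed neither. The adjusted p in limma ran from 0.00226 to 0.0166 with 1 retina left out. It was 0.0558 with the close pairs averaged and 0.0352 without LD-1 and LD-7.

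*Csf1r* encodes the receptor tyrosine kinase for CSF1 and IL-34. It had the highest level of the 9 genes under NL, with 4.11, 2.51, 2.49, 2.37 and 2.82 FPKM in NL-1, NL-4, NL-5, NL-7 and NL-8. In the LD retinas it was at 7.69 FPKM in LD-1, 4.10 in LD-4, 4.04 in LD-6, 6.14 in LD-7 and 3.09 in LD-8. Only LD-1 and LD-7 were above all NL retinas, because NL-1 stood apart from the other NL retinas. The log2 fold change was 0.74 (SE 0.24, 95% interval 0.21 to 1.28), with an adjusted p of 0.0412 in limma and an exact permutation p of 0.0317 (two-sided). Without LD-1 and LD-7 it was 0.40 (adjusted p = 0.150). *Csf1r* (chromosome 18, 61105572 to 61132149) shares 16.4% of its exonic bases with *Hmgxb3* on the opposite strand. Whether the counting used strand is not given in the sources used here, so reads of *Hmgxb3* may be part of the *Csf1r* value. *Hmgxb3* had a mean of 9.01 ± 0.305 FPKM in the NL group and of 9.79 ± 0.688 FPKM in the LD group (SD, n = 5 each).

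*Siglech*, the gene of a receptor of the Siglec family that signals through the adaptor TYROBP, separated the LD retinas. Under NL it was at 0.691, 0.515, 0.480, 0.571 and 0.424 FPKM in NL-1, NL-4, NL-5, NL-7 and NL-8. After LD it was at 0.958 FPKM in LD-1 and 0.844 in LD-7, but at 0.117 in LD-4, 0.0793 in LD-6 and 0.186 in LD-8. No LD retina fell within the NL range: 2 were above it and 3 below, a span of 12.1-fold against 1.63-fold among NL retinas. These values rest on 33 to 50 reads in the NL retinas but on 6 to 79 reads in the LD retinas. The log2 fold change of -0.63 (SE 0.50, 95% interval -1.74 to 0.47, adjusted p = 0.393) averaged over this split. It was -1.50 (adjusted p = 0.00173) without the close pair LD-1 and LD-7 and 0.06 (adjusted p = 0.940) without the close pair LD-4 and LD-6. LD-4 and LD-6 are also the LD retinas with *Xist*, while the NL retinas with *Xist* had 0.515 and 0.424 FPKM of *Siglech*. With *Xist* as a covariate the log2 fold change of *Siglech* was -0.63 (adjusted p = 0.298). As 2 retinas of each group had *Xist*, this covariate could not change the fold change. Nor does it address a split within the LD group. Whether sex had a part in the split was not tested.

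*Fcrls* was at 1.42 FPKM in NL-1 and at 0.383, 0.485, 0.363 and 0.382 FPKM in NL-4, NL-5, NL-7 and NL-8. The LD retinas had 5.59 FPKM in LD-1, 7.40 in LD-4, 8.04 in LD-6, 6.92 in LD-7 and 2.29 in LD-8. The groups were apart, and even LD-8 was above NL-1. The mean rose 9.96-fold, from 0.607 ± 0.458 to 6.05 ± 2.29 FPKM (SD, n = 5 each), and limma gave a log2 fold change of 3.18 with an SE of 0.41 (adjusted p = 2.33e-04). The exact permutation p was 0.00794. *Fcrls* was among the lowest of the 9 genes under NL and had the highest mean after LD. With the close pairs averaged, leaving 4 NL and 3 LD samples, it was higher by 2.90 on the log2 scale with an adjusted p of 0.010, at the limit of the threshold.

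*Tmem119* encodes a transmembrane protein used to tell resident microglia from infiltrating macrophages. It was at 2.20, 1.79, 1.32, 1.53 and 1.29 FPKM in NL-1, NL-4, NL-5, NL-7 and NL-8, and at 2.64, 1.47, 2.05, 2.43 and 1.18 FPKM in LD-1, LD-4, LD-6, LD-7 and LD-8. LD-1 and LD-7 were above the NL range and LD-8 just below it. Its log2 fold change was 0.22 (SE 0.23, adjusted p = 0.528), with a 95% interval of -0.29 to 0.73. This interval lies within 2-fold in both directions.

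*Olfml3*, the gene of a secreted olfactomedin-like protein, was at 1.13, 0.886, 1.34, 1.02 and 1.08 FPKM in NL-1, NL-4, NL-5, NL-7 and NL-8. After LD it was at 3.57 FPKM in LD-1, 2.37 in LD-4, 2.37 in LD-6, 3.27 in LD-7 and 0.576 in LD-8. In 4 LD retinas it was above the NL range, whereas LD-8 was below all NL retinas. The log2 fold change was 0.90 (SE 0.40, adjusted p = 0.127) over all retinas and 1.32 (adjusted p = 3.62e-04) without LD-8, so that this retina decided the call.

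*Sall1* was the lowest of the 9 genes under NL, at 0.595, 0.599, 0.421, 0.465 and 0.346 FPKM in NL-1, NL-4, NL-5, NL-7 and NL-8. In LD-1, LD-4, LD-6, LD-7 and LD-8 it was at 0.935, 0.590, 0.569, 0.684 and 0.367 FPKM. The LD retinas overlapped the NL retinas, with LD-1 and LD-7 above them. The log2 fold change was 0.29 (SE 0.23, 95% interval -0.22 to 0.80, adjusted p = 0.396).

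FPKM are scaled to the gene length of the deposited table, so levels of different genes can be set side by side only with a limit. That length takes all annotated exons of a gene together, 6161 bases for *Olfml3* and 2546 for *P2ry12*. It need not be the length of the RNA present, and the order below depends on it. The place of *Csf1r* is less certain still, since reads of *Hmgxb3* may be part of its value. Under NL the order of the mean levels was *Csf1r*, *P2ry12*, *Tmem119*, *Olfml3*, *Gpr34*, *P2ry13*, *Fcrls*, *Siglech* and *Sall1*. The lowest NL value of *Csf1r* (2.37 FPKM) was above the highest of *P2ry12* (2.29 FPKM), while from *P2ry12* downwards the range of each gene overlapped that of the next. After LD it was *Fcrls*, *Csf1r*, *Olfml3*, *Tmem119*, *Gpr34*, *P2ry12*, *P2ry13*, *Sall1* and *Siglech*, with overlapping ranges for all neighbours. *P2ry12* went from the second to the sixth place, and *Fcrls* from the seventh to the first.

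The LD retinas kept much the same order from gene to gene. LD-1 was the highest LD retina in 8 of the 9 genes, as in 22.8% of all genes tested, and LD-8 was the lowest in 8 of the 9, as in 17.8% of all genes. The exceptions were *Fcrls*, highest in LD-6, and *Siglech*, lowest in LD-6. The SD of the log2 values was larger among LD than among NL retinas in 8 of the 9 genes, against 58.3% of all genes, with *Fcrls* about equal (0.73 under NL, 0.72 after LD). Retina LD-8 was also the lowest LD retina in all 15 pan-myeloid genes, and LD-1 the highest in 12 of them. Against the mean of the NL retinas, the median difference of the 9 genes was 1.23 on the log2 scale in LD-1, 1.03 in LD-7, 0.52 in LD-4, 0.52 in LD-6 and -0.30 in LD-8. For 20 genes known to be induced in activated microglia, some of which may also come from other cells, it was 2.05 to 2.52 in all 5 LD retinas. The summed level of 10 rod photoreceptor genes was 2720.2 FPKM in LD-1, 2286 in LD-7, 1416 in LD-4, 1508 in LD-6 and 2728 in LD-8, against 9116 to 11060.0 in the NL retinas. The part of these differences between retinas in the values of the homeostatic genes was not tested.

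**Figure D2:**
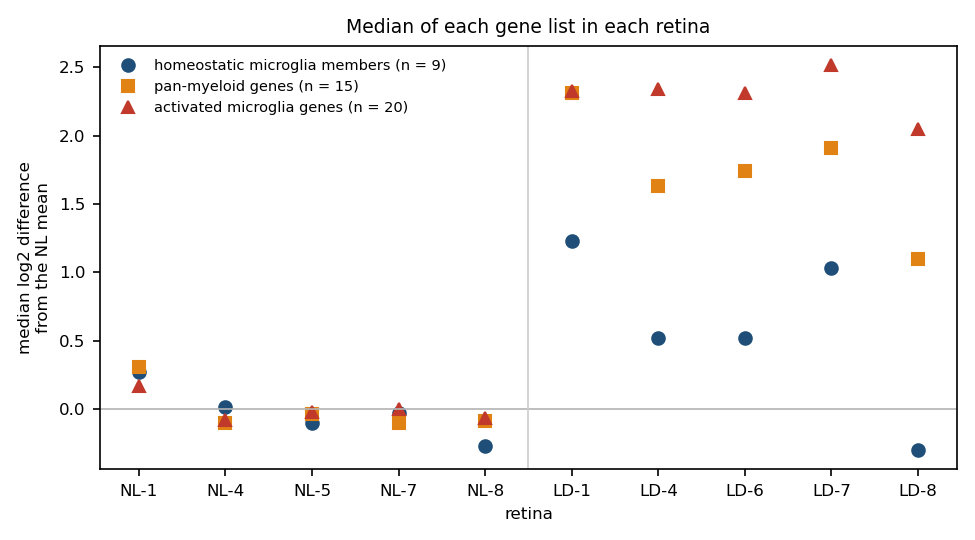
Median over each list of the log2(FPKM + 0.1) difference from the NL mean (y axis) in each of the 10 retinas (x axis), for 9 homeostatic, 15 pan-myeloid and 20 activation genes. In the LD retinas the homeostatic median ranges from -0.30 in LD-8 to 1.23 in LD-1, below the medians of the other lists in every LD retina.

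To set the genes against one another within the same retinas, each was also expressed relative to *Csf1r*, which all microglia and macrophages carry. Reads of *Hmgxb3* may be part of this reference. *P2ry12* fell relative to *Csf1r*: the log2 ratio was -1.28, -0.18, -0.18, -0.05 and -0.58 in NL-1, NL-4, NL-5, NL-7 and NL-8. In LD-1, LD-4, LD-6, LD-7 and LD-8 it was -1.65, -2.17, -1.78, -1.75 and -2.34. All LD retinas lay below all NL retinas, as for 11.9% of all genes relative to *Csf1r*, NL-1 being the nearest of the latter. The difference was -1.49 (SE 0.32, adjusted p = 0.00234 in limma, exact permutation p = 0.00794). The median of all genes in this comparison was -0.76, since *Csf1r* itself was higher after LD, and 12.0% of all genes were called lower. The adjusted p shares the error of *Csf1r* over all genes. It was 0.0240 with the close pairs averaged, 0.0101 without NL-5, 0.0111 without NL-7, 0.0588 without both, 0.0145 without LD-4 and LD-6 and 0.0166 with only the retinas whose numbers both groups share, each of which ended the call, while the difference stayed between -1.04 and -1.69 over 27 alternatives.

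*Siglech* had a log2 ratio to *Csf1r* of -2.20 ± 0.24 under NL and -3.58 ± 0.81 after LD (SD, n = 5 each), again with all LD retinas below all NL retinas (11.9% of all genes). The difference of -1.38 (SE 0.41) had an adjusted p of 0.0153 and did not pass the threshold. *Fcrls* rose relative to *Csf1r* by 2.43 (SE 0.35, adjusted p = 4.14e-05), where 1.46% of all genes were called higher and 1.67% had the LD retinas wholly above the NL retinas. The ratio of *Tmem119* to *Csf1r* went from -0.78 ± 0.24 to -1.30 ± 0.21 and that of *Sall1* from -2.33 ± 0.33 to -2.78 ± 0.17, with adjusted p of 0.128 and 0.255. *P2ry13*, *Gpr34* and *Olfml3* differed from *Csf1r* by -0.08, 0.12 and 0.15 (adjusted p of 0.846, 0.750 and 0.702).

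**Figure D3:**
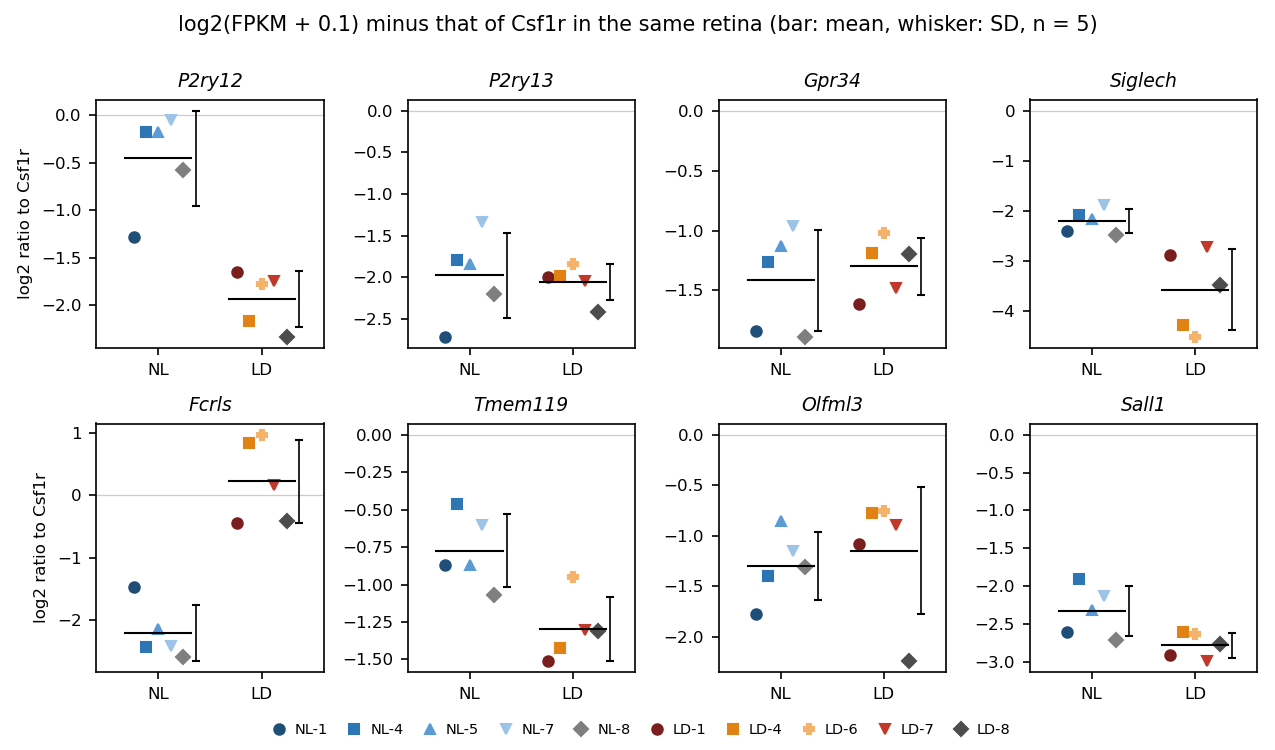
Log2 ratio of 8 homeostatic genes to *Csf1r* (y axis, each value the log2(FPKM + 0.1) of the gene minus that of *Csf1r* in the same retina) in 5 NL and 5 LD retinas, with the mean as a bar and the SD as a whisker. The LD points of *P2ry12* and *Siglech* lie below, and those of *Fcrls* above, every NL point.

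Against *Cx3cr1*, a reference chosen after the values were seen, *P2ry12* (-1.89), *Siglech* (-1.78), *Tmem119* (-0.92) and *Sall1* (-0.85) had LD retinas wholly below the NL retinas. Since *Cx3cr1* rose, 58.0% of all genes did so, and 4 of 9 is no result about these genes. *Fcrls* was higher against *Cx3cr1* by 2.03, its LD retinas lying wholly above, as for 1.26% of all genes.

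A ratio chosen after the values were seen sets the neighbouring ADP receptor genes against each other. The log2 ratio of *P2ry12* to *P2ry13* lay between 1.29 and 1.66 under NL and between -0.18 and 0.35 after LD. The mean went from 1.53 ± 0.15 to 0.12 ± 0.21 (SD, n = 5 each), a difference of -1.41, and the groups did not overlap (two-sided exact permutation p = 0.00794, on the data that led to the choice). Relative to *P2ry13*, 5.66% of all genes had the LD retinas wholly below and 1.51% wholly above the NL retinas.

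Other genes of resting microglia gave a mixed picture. Of 20 such genes, all tested, 5 rose, none fell and 15 were not called, with a median log2 fold change of 0.42. Called or not, the log2 fold change was above 0 in 15 genes and below 0 in 5. *Cx3cr1*, the receptor for the neuronal chemokine fractalkine, rose from 1.55 ± 0.168 to 3.62 ± 0.850 FPKM (SD, n = 5 each), or by 1.14 on the log2 scale (SE 0.17, adjusted p = 6.16e-04). The UDP receptor gene *P2ry6* rose by 1.83 (adjusted p = 1.32e-04), from 0.165 to 0.818 FPKM, and *Tmem173* and *Rnase4* by 1.17 and 1.78. With the close pairs averaged 1 of the 20 was called, without LD-1 and LD-7 3 were, and without LD-4 and LD-6 2 were. Several genes of this list are not restricted to microglia: *Cst3* was at 410.3 to 552 FPKM and *Bin1* at 137 to 162 FPKM in the NL retinas, far above the level of *Csf1r*. Both were lower after LD, with log2 fold changes of -0.52 and -0.55 (adjusted p of 0.00981 and 0.00273 in limma). They passed the threshold for the p-value, as 17.0% of all genes did in either direction, but not that for the fold change.

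The pan-myeloid genes, some of which such as those of complement C1q belong mainly to macrophages and microglia, moved in 1 direction. Of 15 genes, 13 rose and none fell, with a median log2 fold change of 1.80. *Fcer1g*, a signalling adaptor of Fc receptors, rose from 0.993 ± 0.403 to 5.20 ± 0.868 FPKM (SD, n = 5 each), or on the log2 scale by 2.35 (SE 0.26, adjusted p = 7.98e-05). The complement genes *C1qc* and *C1qb* rose by 2.27 and 2.15, and *Ly86* by 2.14. *Laptm5* (1.27, adjusted p = 0.0118) and *Ctss* (0.85, adjusted p = 0.0380) did not pass. With the close pairs averaged, 7 of the 15 were higher and called. Of 20 genes known to be induced in activated microglia, 14 rose and none fell, with a median of 2.24. Among them *Spp1*, which encodes osteopontin, went from 3.35 ± 0.877 to 66.8 ± 43.3 FPKM and *Lgals3*, which encodes galectin 3, from 3.03 ± 0.695 to 42.9 ± 26.7 FPKM (SD, n = 5 each). The chemokine gene *Ccl3* went from 0.0993 ± 0.0556 to 4.57 ± 1.30 FPKM and *Ccl4* from 0.0235 ± 0.0525 to 2.10 ± 0.789 FPKM. Some genes of this activation list may also come from other cells. In the NL retinas *Apoe* was at 310.2 to 382 FPKM and *Cd9* at 17.9 to 21.3 FPKM, far above the level of *Csf1r*. The part of other cells in these values was not tested.

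Of 22 ligands, receptors and transcription factors known to maintain microglia, 21 were tested, of which 7 rose and 1 fell. *Csf1*, a ligand of CSF1R, rose from 1.57 ± 0.157 to 8.82 ± 0.845 FPKM (SD, n = 5 each), or on the log2 scale by 2.42 (SE 0.09, adjusted p = 4.66e-08). The other ligand gene, *Il34*, was at 3.96 ± 1.23 and 5.20 ± 0.353 FPKM, a difference of 0.43 on the log2 scale that did not pass (adjusted p = 0.103). Thus *Il34* was above *Csf1* in every NL retina and below it in every LD retina. *Tgfb1*, whose product is needed by microglia in the adult brain, rose from 0.340 ± 0.0703 to 0.892 ± 0.199 FPKM (log2 fold change 1.16, adjusted p = 0.00108), and *Tgfb2* rose by 1.04. The receptor gene *Tgfbr1* was at 7.27 ± 0.606 and 7.56 ± 0.728 FPKM (log2 fold change 0.05, adjusted p = 0.654).

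Among the transcription factors, *Irf8* rose from 0.374 ± 0.0665 to 4.40 ± 0.713 FPKM (SD, n = 5 each), or on the log2 scale by 3.24 (SE 0.15, adjusted p = 1.67e-07). *Spi1*, which encodes PU.1, rose from 0.261 ± 0.134 to 1.66 ± 0.389 FPKM (log2 fold change 2.34, adjusted p = 9.54e-05), and *Cebpa* and *Runx1* rose by 2.30 and 1.54. *Mef2c* was the only one that fell, by 1.44 on the log2 scale (adjusted p = 5.07e-04). It is also expressed in photoreceptors, and whether the lower level of rod genes had a part in its fall was not tested.

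**Figure D4:**
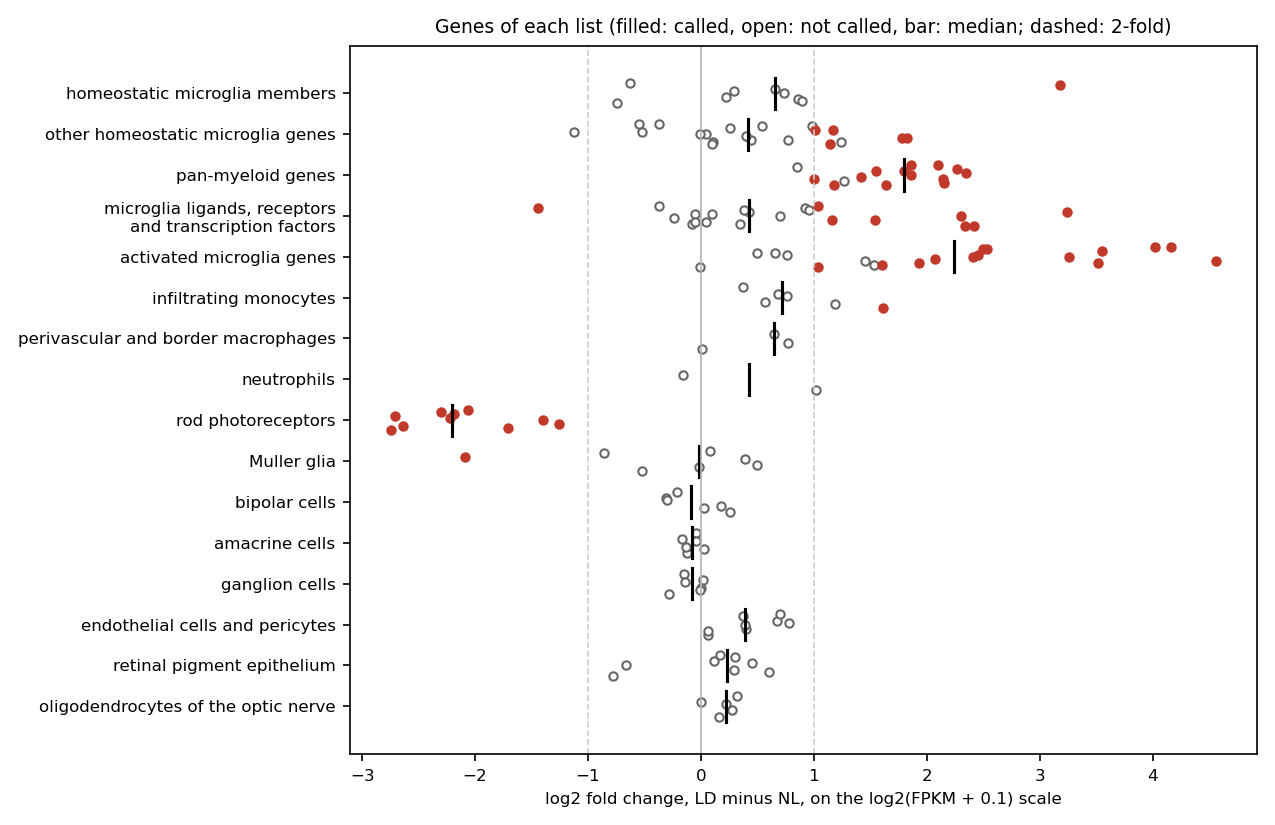
Log2 fold change of LD minus NL (x axis, log2(FPKM + 0.1) scale) for each gene tested in the homeostatic genes and 15 other gene lists (y axis), with called genes filled, other genes open and the list median as a bar. The median is 0.66 for the homeostatic genes, 1.80 for the pan-myeloid genes and 2.24 for the activation genes.

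Most markers of monocytes, of perivascular and border macrophages and of neutrophils were low. Of 10 monocyte genes, 6 passed the filter on low values and 1 rose, *Plac8*, with at most 12 reads in a retina. *Ly6c2* had no NL reads and no more than 17 reads after LD, and *Ccr2* was at 0.0121 to 0.140 FPKM after LD and at most 0.00729 FPKM under NL. The summed level of the 10 genes was 5.60 to 7.20 FPKM under NL and 8.78 to 14.5 FPKM after LD, most of it from *Fn1*, which other cells also express. Of 8 genes of perivascular and border macrophages, 3 were tested and none was called. Their sum was 6.54 to 8.33 FPKM under NL and 6.81 to 9.72 FPKM after LD, most of it *Lyve1*, while *Mrc1* reached at most 0.351 FPKM and *Cd163* at most 0.0563 FPKM. Of 7 neutrophil genes, 2 were tested, neither was called, and the sum was at most 0.940 FPKM. The part of such cells in the myeloid values was not tested.

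The other cells of the retina are given for reference. Of 10 rod photoreceptor genes, all 10 fell, with a median log2 fold change of -2.20. Among them *Gnat1*, *Nrl* and *Nr2e3* fell by 2.71, 2.64 and 2.30 on the log2 scale. No gene was called in the lists of bipolar (6 genes), amacrine (6), ganglion (6), vascular (8) and retinal pigment epithelial (8) cells, or among the 5 oligodendrocyte genes tested. Their medians ran from -0.09 to 0.39. Of 7 Müller glia genes 1 fell, *Glul*, by 2.09 on the log2 scale.

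By pattern over the 10 retinas, the genes nearest to *Fcrls* among 12689 protein-coding genes were *Gfap* (root mean square difference 0.29 on the log2 scale), *Lyz2* (0.48) and *B2m* (0.49). *Gfap* encodes the filament of reactive glia, *Lyz2* a lysozyme of myeloid cells and *B2m* the light chain of MHC class I. Nearest to *Gpr34* were *Nckap1l* (0.16), *Tnfaip8l2* (0.20) and *Ticam1* (0.20). Those nearest to *P2ry12* were *Ppil6* (0.29), *Slc38a6* (0.31) and *Spata9* (0.32).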

How the data were processed

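RNA-seq was done on 5 NL and 5 LD retinas. The deposited table gives FPKM for 54532 genes, which a sequencing company computed and normalized for the authors. The labels' processing notes name Bowtie2 2.0.6, TopHat2 2.0.9 and mm8, but the gene positions are those of GRCm38: 53499 genes have the same position in GENCODE M21. The counting program and its use of strand are not given in the sources used here. The library size in the deposited FPKM was the sum of the recovered reads times a factor of 0.951 to 0.968 under NL and 1.04 to 1.07 after LD.

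Genes reaching 0.1 FPKM in 5 or more retinas (24508) were put on the log2(FPKM + 0.1) scale. The groups were compared by limma 3.58.1 under R 4.3.3, allowing the spread to depend on intensity, without a block, and p-values were adjusted by Benjamini-Hochberg over every gene tested. Calls needed an adjusted p below 0.01 and a change above 2-fold. The same model was run after subtracting *Csf1r* within each retina. Folds on this scale understate changes of low genes. Exact permutation tests used scipy 1.17.1. The genes named are the 9 genes, called genes of the other lists with the largest fold change and 0.5 FPKM or more as a group mean, fixed regulators, *Cx3cr1* and the 3 genes nearest in pattern. Some genes that this rule names are not reported here. *Cst3*, *Bin1*, *Apoe*, *Cd9*, *Laptm5*, *Ctss*, *Plac8* and the other markers of monocytes and border macrophages were named after their values were seen. The genes and lists were chosen with earlier results of these data known. Whole reads were recovered to within 0.01 read for 100.0% of the values of up to 1000 reads. Intervals cover the spread between these samples only.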

Additional observations from a re-analysis of the deposited data

Results flagged for a closer look

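The 9 genes give 18 sets of 5 retinas, in which chance would place about 0.90 outlying values. There were 2, both of NL-1. *Csf1r* had 4.11 FPKM in NL-1, while the remaining NL retinas had 2.37 to 2.82. *Fcrls* had 1.42 FPKM there, while the remaining NL retinas had 0.363 to 0.485. NL-1 also had a summed level of 53.0 FPKM over 15 pan-myeloid genes, the remaining ones 31.8 to 34.2 FPKM. Without NL-1 the log2 fold change was 0.88 for *Csf1r* and 3.50 for *Fcrls*.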

How the results depend on the processing

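Over 27 alternatives *Fcrls* stayed higher after LD, by 2.09 to 3.53 on the log2 scale, and lost its call only with the close pairs averaged (adjusted p = 0.010). Counts of calls changed more. All genes called were 1595 of 24508, against 816 with a pseudocount of 1, 6818 at an adjusted p under 0.05 with no minimum fold, and 1379 to 1603 with 1 retina left out. They were 1751 with TPM, 1804 with limma-voom and 1076 with the close pairs averaged. Without LD-1 and LD-7 they were 1707, and without LD-8 1557. Of the 9 homeostatic genes 1 was called, against 2 with TPM, 2 with limma-voom, 0 with the close pairs averaged, 3 at the looser threshold, 3 without LD-1 and LD-7, and 1 to 2 with 1 retina left out (2 without LD-8). These counts take both directions together: without LD-1 and LD-7, *P2ry12* and *Siglech* were called lower and *Fcrls* higher. Relative to *Csf1r* 2 of the homeostatic genes were called, against 1 with only the shared numbers kept unpaired, 1 with the close pairs averaged, 1 without NL-5 and NL-7, 1 without LD-4 and LD-6, and 1 to 2 with 1 retina left out. Higher among the other resting genes were 5, against 1 with a pseudocount of 1, 3 with a filter of 1 FPKM, 1 with the close pairs averaged, 10 at the looser threshold, 3 without LD-1 and LD-7, and 2 without LD-4 and LD-6. Pan-myeloid genes went from 13 to 8 with a pseudocount of 1 and 7 with the close pairs averaged, and the regulators from 7 to 4 with a pseudocount of 1 and 12 at the looser threshold. With 1 retina left out these lists had 4 to 6, 11 to 14 and 6 to 8, and the activation genes 13 to 15. *P2ry13*, *Sall1* and *Siglech* did not pass the filter of 1 FPKM and have no value there. The causes were not tested.

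Direction changed only in values that were not called. Relative to *Csf1r*, *Gpr34* was -0.07 with a pseudocount of 1, -0.00 without NL-8 and -0.01 without LD-4 and LD-6, *Olfml3* was -0.11 without LD-4 and LD-6, and *P2ry13* was 0.08 without NL-7, 0.01 without LD-8 and 0.18 without NL-5 and NL-7. With 1 retina left out, these ratios to *Csf1r* ran from -0.00 to 0.23 for *Gpr34* and from -0.27 to 0.08 for *P2ry13*. Between LD and NL directly, *Siglech* was 0.06 without LD-4 and LD-6 and *Tmem119* -0.06 without LD-1 and LD-7.

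The retinas of both groups share the numbers 1, 4, 7 and 8, but same-numbered retinas did not deviate together (correlations of -0.09 to 0.07). With the number as a replicate block, which keeps 4 retinas per group, 808 of all genes, 1 of the 9 homeostatic genes, 7 pan-myeloid genes, 2 regulators and 1 other resting gene were called, the lists counted upward, and 2 of the 9 relative to *Csf1r*. Without the block, the same retinas gave 1182 of all genes and 1 of the 9 homeostatic genes. They gave 11 pan-myeloid genes, 6 regulators and 4 other resting genes upward, and 1 of the 9 relative to *Csf1r*.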
